A study of Mus musculus with 20 samples.

Results

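The genes described here were the ligands and receptors of the platelet-derived and vascular endothelial growth factor families: the PDGF ligands Pdgfa, Pdgfb, Pdgfc and Pdgfd, the PDGF receptors Pdgfra and Pdgfrb, and the VEGF ligands Vegfa, Vegfb and Vegfc. They were chosen by name, with earlier results of these data known, and all 9 were found among 55414 gene identifiers in the count table. All 9 were also among the 15624 genes that had enough reads to be tested. RNA was measured in 20 cultures of primary mouse cardiac fibroblasts, the matrix-producing cells of the heart, in 5 groups of 4. Each group held 2 cultures labelled female (replicates 1 and 2) and 2 labelled male (replicates 3 and 4).

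The groups were named for the adenovirus and for TGFB, the fibrogenic cytokine transforming growth factor beta. Cre_TGFB received the Cre virus and TGFB, GFP_TGFB the GFP virus and TGFB, Cre the Cre virus, Hyal2 a virus that overexpresses Hyal2, and GFP the control virus. Per the labels' protocols all cells were passage 2 fibroblasts of Hyal2 fl/fl mice, so the GFP and Hyal2 cultures also carried the floxed allele, while the genotype field of every sample reads Wild Type C57BL/6J. The cells were serum starved for 24 h and given virus for 5 h, and were collected after 48 h in new medium that held 20 ng/mL of growth factor. The growth medium of all cultures held bFGF, and the wording of the treatment protocol does not settle whether the cultures without TGFB received bFGF in its place, so the TGFB comparisons may also differ in bFGF. Cre was delivered by virus to the whole dish, and any cells that escaped infection stayed in the culture. The replicate numbers recur across groups together with the library name codes, and samples of 1 number are taken as 1 isolate of cells.

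PDGF ligands are secreted dimers that bind receptor tyrosine kinases. PDGF-A and PDGF-C act mainly through the alpha receptor, PDGF-D mainly through the beta receptor, and PDGF-B through both. PDGF-C and PDGF-D are secreted in a latent form and need proteolytic release of a CUB domain. In the heart the alpha receptor marks resident fibroblasts and the beta receptor marks pericytes and other mural cells. VEGF-A drives the growth of blood vessels through the endothelial receptor VEGFR2 (Kdr), VEGF-B binds VEGFR1 (Flt1), and VEGF-C and VEGF-D act on lymphatic vessels through VEGFR3 (Flt4).

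Promoter sequences are printed for the 4 genes with the largest called changes under TGFB, because 3 of them rose and 1 fell. The sequences are the 250 bases before the RefSeq start on build GRCm38.p6, given 5′ to 3′ on the strand of the gene; 7 of the 9 genes had an entry, and Pdgfb and Pdgfrb had none. Pdgfra lies at chr5:75152001-75152250 (plus strand), Pdgfc at chr3:81036166-81036415 (plus strand), the upstream start of Pdgfa at chr5:138994945-138995194 (minus strand) and the upstream start of Vegfa at chr17:46032378-46032627 (minus strand). Capitals mark matches, on either strand, to CAGAC (a sequence bound by SMAD proteins), GGGCGG (a GC box), ACGTG (the core of a HIF site) or the CArG box of serum response factor.
Pdgfra: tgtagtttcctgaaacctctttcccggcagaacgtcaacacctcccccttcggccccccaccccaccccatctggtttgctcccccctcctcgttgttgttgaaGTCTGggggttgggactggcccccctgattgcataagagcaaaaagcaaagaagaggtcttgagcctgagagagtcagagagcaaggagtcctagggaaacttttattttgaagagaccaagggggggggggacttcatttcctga
Pdgfc: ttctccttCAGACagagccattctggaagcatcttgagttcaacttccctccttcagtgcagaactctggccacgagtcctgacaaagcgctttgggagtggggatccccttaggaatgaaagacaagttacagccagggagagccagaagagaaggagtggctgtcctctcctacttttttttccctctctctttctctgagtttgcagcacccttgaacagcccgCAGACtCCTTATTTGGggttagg
Pdgfa: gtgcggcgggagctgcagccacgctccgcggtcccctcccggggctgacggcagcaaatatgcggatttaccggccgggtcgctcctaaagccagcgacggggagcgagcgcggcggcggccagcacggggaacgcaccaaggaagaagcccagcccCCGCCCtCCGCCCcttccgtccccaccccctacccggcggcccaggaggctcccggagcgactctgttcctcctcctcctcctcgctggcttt
Vegfa: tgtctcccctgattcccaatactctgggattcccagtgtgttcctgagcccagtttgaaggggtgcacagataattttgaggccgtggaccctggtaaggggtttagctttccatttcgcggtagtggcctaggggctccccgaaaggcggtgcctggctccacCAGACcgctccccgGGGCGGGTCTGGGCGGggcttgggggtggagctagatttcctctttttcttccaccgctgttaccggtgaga

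In the Pdgfra window the single match was a CAGAC on the minus strand, which starts 146 bases before the gene start. The Pdgfc window held CAGAC at 242 and 23 bases before the start and a CArG box, CCTTATTTGG, at 17 bases before it. The Pdgfa window held no CAGAC and a pair of GC boxes on the minus strand, at 93 and 86 bases. The Vegfa window held CAGAC at 86 bases on the plus strand and at 66 bases on the minus strand, and its GC boxes begin at 72 and 62 bases. The CAGAC at 66 bases shares 1 base with the GC box at 62 bases and abuts the other. Of 32851 such windows, 42.2% held CAGAC, 32.7% a GC box, 16.6% ACGTG and 1.47% a CArG box. CAGAC thus stood in the window of Pdgfra, which fell under TGFB, and in those of Pdgfc and Vegfa, which rose, but not in either Pdgfa window. These matches are a description of letters, made with the results known, and do not show binding.

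Library totals ranged from 38.6 to 104.8 M counts, so that 3 counts correspond to 0.0285 to 0.0813 CPM, the TMM-scaled counts per M reads. Hyal2, the hyaluronidase gene the Cre virus targets, lay at 5.37 to 9.14 CPM in Cre_TGFB and at 33.4 to 41.1 CPM in GFP_TGFB. It lay at 7.62 to 13.5 CPM in Cre, at 399 to 1420 CPM in Hyal2 and at 36.6 to 44.5 CPM in GFP, so the virus labels fit its level in all 20 libraries. Fibroblast markers were abundant in every group: Col1a1 lay at 16200 to 20900 CPM in GFP_TGFB and at 8460 to 12800 CPM in GFP. Tcf21, a transcription factor of resident cardiac fibroblasts, lay at 23.3 to 29.1 CPM in GFP_TGFB and at 99.3 to 157 CPM in GFP. Markers of cardiomyocytes summed to 1.3 to 3.46 CPM in GFP_TGFB and 2.71 to 3.48 CPM in GFP, and 3 of its 10 genes in GFP_TGFB and 2 in GFP had no read.

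TGFB changed most of these genes. In GFP_TGFB against GFP, Pdgfa, Pdgfc, Vegfa and Vegfc rose, and Pdgfra, Pdgfd and Vegfb fell, while Pdgfb and Pdgfrb did not pass the test (edgeR's quasi-likelihood test; a call is a Benjamini-Hochberg adjusted p, taken over all 15624 genes, of under 0.05). These 7 calls of 9 stand against 55.3% of all tested genes called in the same comparison, 26.6% higher and 28.6% lower, so the count alone does not set the families apart. Without overlap between the 4 libraries of each group were 7 of the 9 genes, against 50.2% of all genes. The size of the changes ranged more widely than their number: by absolute log2 fold change, Pdgfc ranked 154 and Pdgfra 584 of 15624 genes. The median log2 fold change was -0.09 over the 9 genes and -0.02 over all genes.

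**Figure D1:**
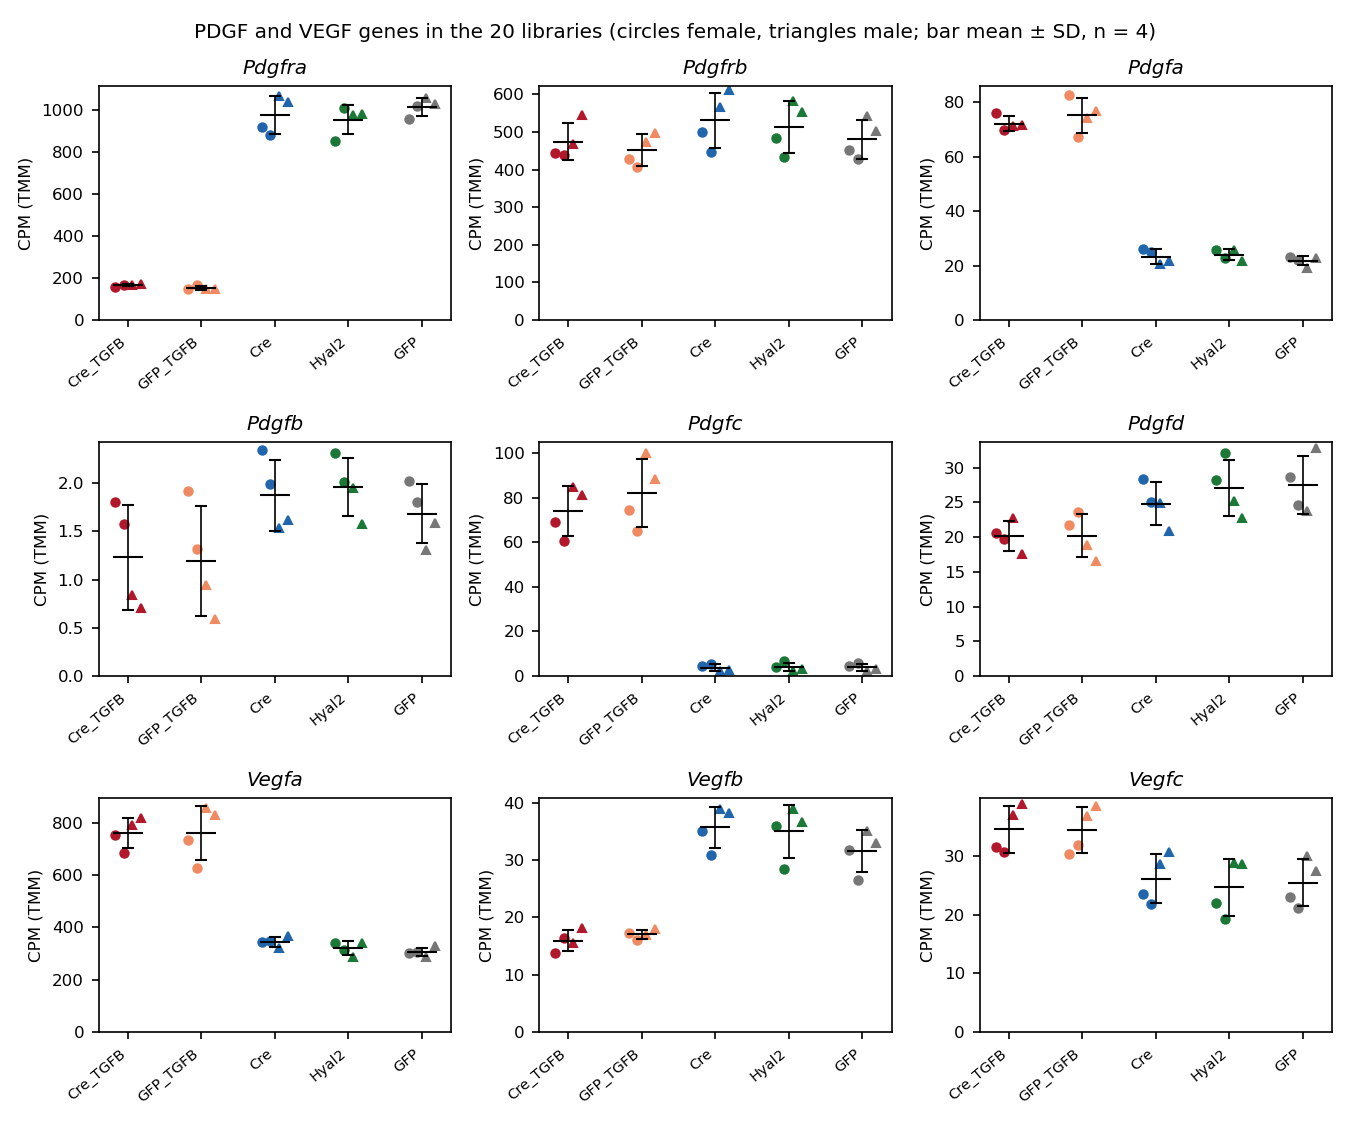
Level of each of the 9 genes in every library, in CPM on axes that start at 0, by group; circles are female and triangles male cultures, and bars show mean ± SD (n = 4). Pdgfra lies at 146 to 173 CPM in the 8 cultures with TGFB and at 854 to 1070 CPM in the 12 without it, and Pdgfc at 60.6 to 100 CPM and at 2 to 6.62 CPM in the same cultures.

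The PDGF receptors parted under TGFB. Pdgfra, the alpha receptor, had 148, 169, 146 and 149 CPM in GFP_TGFB (replicates 1 to 4), against 958, 1020, 1060 and 1030 CPM in GFP. The groups lay far apart, with the highest library with TGFB well under the lowest without it. Pdgfra fell 6.64-fold (log2 fold change -2.73, SE 0.08, edgeR adjusted p = 2.06e-15). In bulk RNA, fewer cells of a type and less RNA per cell cannot be told apart. Pdgfrb, the beta receptor, had 427, 406, 474 and 498 CPM in GFP_TGFB, against 451, 427, 543 and 502 CPM in GFP. Its groups overlapped, and the log2 fold change was -0.09 with a 95% interval of -0.33 to 0.14 (edgeR adjusted p = 0.512).

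Per kilobase of exon the receptors were near even without TGFB and uneven with it. The evenness depends on the exon lengths used, 10.024 kb for Pdgfra and 5.478 kb for Pdgfrb on GRCm38. In CPM, Pdgfra averaged 1020 and Pdgfrb 481 in GFP. The ratio of Pdgfrb to Pdgfra (CPM per kb) was 5.43 ± 0.77 in GFP_TGFB and 0.864 ± 0.071 in GFP (SD, n = 4 each). It was 5.22 ± 0.39 in Cre_TGFB and 0.992 ± 0.064 in Cre, and 0.987 ± 0.135 in Hyal2. The lowest ratio with TGFB was 4.4 and the highest without it 1.09. These ratios are given as a description, and most of the shift lies in Pdgfra, at 15.3 CPM per kb in GFP_TGFB and 101 CPM per kb in GFP.

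Among the PDGF ligands, Pdgfc changed most. Pdgfc had 74.5, 65.1, 100 and 88.2 CPM in GFP_TGFB, against 4.49, 5.88, 2 and 3.09 CPM in GFP. Every culture with TGFB stood above every culture without it, and the male cultures were the highest with TGFB and the lowest without. Pdgfc rose 20.9-fold (log2 fold change 4.38, SE 0.35, edgeR adjusted p = 5.26e-09). Pdgfa had 82.8, 67.1, 74.3 and 76.7 CPM in GFP_TGFB, against 23.1, 22.2, 19.2 and 22.8 CPM in GFP. It rose 3.45-fold without overlap (log2 fold change 1.79, SE 0.09, edgeR adjusted p = 7.53e-12), so both main ligands of the alpha receptor were higher where Pdgfra was lower. An antisense gene, 6330403L08Rik, shares 813 bases of exon with Pdgfa on the GRCm38 annotation and had 8.64 to 12.6 CPM over all libraries. The strand setting of the counting is not given in the sources used here, so reads of this pair may be mixed.

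The ligands of the beta receptor changed less. Pdgfd had 21.7, 23.6, 18.9 and 16.6 CPM in GFP_TGFB, against 28.6, 24.7, 23.8 and 32.9 CPM in GFP. The groups were close but did not overlap, and Pdgfd fell 1.36-fold (log2 fold change -0.44, SE 0.13, edgeR adjusted p = 0.00819). Without replicate 4 the log2 fold change was -0.26 and the call was lost (edgeR adjusted p = 0.0826). Pdgfb, which rests on few reads, had 1.92, 1.32, 0.944 and 0.586 CPM in GFP_TGFB, against 2.02, 1.81, 1.31 and 1.59 CPM in GFP. Its groups overlapped (log2 fold change -0.50, 95% interval -1.15 to 0.15, edgeR adjusted p = 0.183), but within each isolate the value with TGFB was lower, and with the replicate number as a block the call passed (edgeR adjusted p = 0.0192).

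The make-up of the PDGF ligand RNA changed with these genes. Per kilobase, Pdgfc held 34.2 ± 4.67% of the summed PDGF ligand level in GFP_TGFB and 4.48 ± 1.92% in GFP (SD, n = 4 each). Pdgfd held 13.8 ± 2.98% in GFP_TGFB and 51.6 ± 3.45% in GFP. Pdgfa held 51.4 ± 2.8% in GFP_TGFB and 41.6 ± 1.82% in GFP, and Pdgfb 0.615 ± 0.294% and 2.39 ± 0.333% in the same groups. The summed level was 46.9 ± 3.35 CPM per kb in GFP_TGFB and 16.8 ± 1.87 CPM per kb in GFP, as a description with no test. The shares and the sum depend on the exon lengths used, such as 5.089 kb for Pdgfc and 3.119 kb for Pdgfa on GRCm38.

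**Figure D2:**
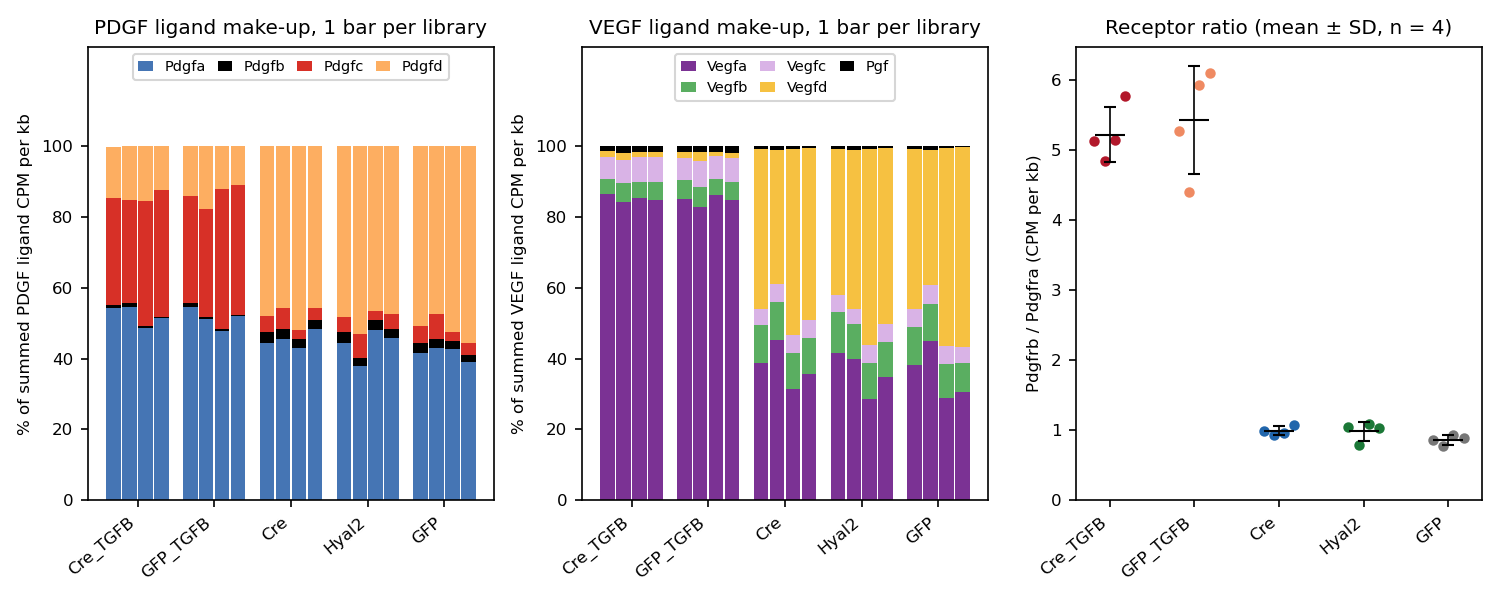
Share of each ligand in the summed PDGF (left) and VEGF (middle) ligand level, in % of CPM per kb, with 1 bar per library by group, and the ratio of Pdgfrb to Pdgfra in CPM per kb (right, points are libraries, bars mean ± SD, n = 4). With TGFB, Pdgfc and Vegfa take larger shares and Pdgfd and Vegfd smaller ones, and the receptor ratio lies between 4.4 and 6.11 in GFP_TGFB, against 0.77 to 0.939 in GFP.

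Vegfa, the main angiogenic ligand, had the highest level per kilobase of the 9 genes under TGFB. Vegfa had 735, 627, 858 and 829 CPM in GFP_TGFB, against 304, 305, 287 and 328 CPM in GFP. The lowest library with TGFB lay well above the highest without it. Vegfa rose 2.49-fold (log2 fold change 1.32, SE 0.09, edgeR adjusted p = 5.63e-10). Per kilobase it lay at 178 CPM per kb in GFP_TGFB, above Pdgfrb at 82.4 CPM per kb, while in GFP it lay at 71.4 CPM per kb, below Pdgfra and Pdgfrb.

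The other VEGF ligands moved in different directions. Vegfb, which binds VEGFR1, had 17.2, 16, 16.9 and 17.9 CPM in GFP_TGFB, against 31.8, 26.5, 35.1 and 32.9 CPM in GFP. It fell 1.86-fold without overlap (log2 fold change -0.90, SE 0.11, edgeR adjusted p = 9.96e-07). Vegfc, a lymphatic growth factor, had 30.3, 31.8, 36.9 and 38.5 CPM in GFP_TGFB, against 23, 21.2, 30 and 27.5 CPM in GFP. The lowest library with TGFB stood only just above the highest without it, and Vegfc rose 1.35-fold (log2 fold change 0.44, SE 0.14, edgeR adjusted p = 0.0155). This call was lost without GFP replicate 2 (edgeR adjusted p = 0.0541) or without GFP_TGFB replicate 4 (edgeR adjusted p = 0.0518). Vegfc was higher with TGFB in 4 of 4 isolates, and with the replicate number as a block the call held (edgeR adjusted p = 4.24e-06).

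The rest of the family had 8 genes, of which 2 rose, 2 fell and 4 did not pass in GFP_TGFB against GFP, and the counts were the same in Cre_TGFB against Cre. Of all genes 55.3% were called in the GFP pair and 56.5% in the Cre pair, so these counts do not set the 8 genes apart. Vegfd, the other lymphatic ligand, had 7.61, 9.96, 6.86 and 8.01 CPM in GFP_TGFB, against 202, 146, 311 and 340 CPM in GFP. It fell 30.6-fold without overlap (log2 fold change -4.94, SE 0.27, edgeR adjusted p = 3.73e-11), the opposite direction to Vegfc. Pgf, a placental growth factor that binds VEGFR1, averaged 10.6 ± 1.4 CPM in GFP_TGFB and 4.29 ± 1.05 CPM in GFP and rose 2.46-fold (SD, n = 4; edgeR adjusted p = 3.02e-06). The coreceptor Nrp2 averaged 55.1 ± 3.85 CPM in GFP_TGFB and 15.5 ± 2.01 CPM in GFP and rose 3.55-fold (edgeR adjusted p = 2.75e-10). Pdgfrl, a secreted PDGF receptor-like protein, averaged 23.5 ± 4.21 CPM in GFP_TGFB and 35.5 ± 7.14 CPM in GFP and fell 1.51-fold (edgeR adjusted p = 0.0115). The VEGF receptors and Nrp1 were not called: the log2 fold change was 0.18 for Flt1, -0.57 for Kdr, 0.70 for Flt4 and -0.32 for Nrp1. Flt4 passed with the replicate block (edgeR adjusted p = 4.95e-06). Kdr averaged 0.481 CPM in GFP_TGFB and 0.718 CPM in GFP, so the main VEGF-A receptor was close to absent from these cultures.

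With Vegfd and Pgf counted, the summed VEGF ligand level per kilobase was 210 ± 25.7 CPM per kb in GFP_TGFB and 207 ± 41.9 CPM per kb in GFP (SD, n = 4 each). Its make-up differed: Vegfa held 84.8 ± 1.38% in GFP_TGFB and 35.6 ± 7.37% in GFP, and Vegfd 1.65 ± 0.481% in GFP_TGFB and 48.9 ± 8.84% in GFP. These shares are a description with no test and, like those of the PDGF ligands, depend on the exon lengths used.

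**Figure D3:**
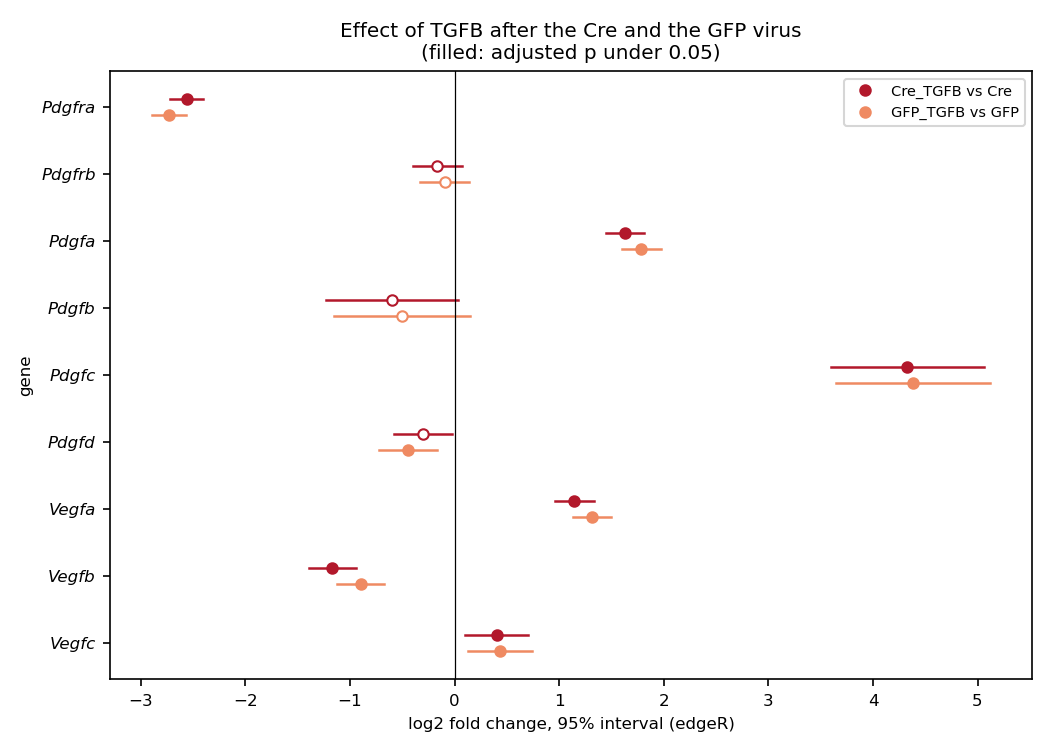
log2 fold change of the 9 genes under TGFB, in Cre_TGFB against Cre and in GFP_TGFB against GFP, with 95% intervals. Pdgfc stands at 4.33 with the Cre virus and 4.38 with the GFP virus, and Pdgfra at -2.56 and -2.73.

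In the cultures with the Cre virus, TGFB was tested in libraries separate from the GFP ones but of the same isolates. Cre_TGFB against Cre called 4 of the 9 genes higher and 2 lower, where 27.5% of all genes were called higher and 29% lower (56.5% in all). Pdgfra had 158, 166, 167 and 173 CPM in Cre_TGFB, against 920, 881, 1070 and 1040 CPM in Cre, and fell 5.89-fold (log2 fold change -2.56, SE 0.08, edgeR adjusted p = 4.94e-15). Pdgfc had 69.1, 60.6, 84.8 and 81.2 CPM in Cre_TGFB, against 4.41, 5.4, 2.08 and 2.48 CPM in Cre, and rose 20.1-fold (log2 fold change 4.33, SE 0.35, edgeR adjusted p = 5.5e-09). Both stood apart without overlap, as they did with the GFP virus; 5 of the 9 genes did so, against 51.2% of all genes. Pdgfa rose 3.09-fold (72.1 ± 2.69 CPM in Cre_TGFB and 23.3 ± 2.58 in Cre; SD, n = 4; edgeR adjusted p = 2.27e-11). Vegfa rose 2.21-fold (763 ± 58.4 CPM in Cre_TGFB and 344 ± 19 in Cre; edgeR adjusted p = 3.6e-09). Vegfb fell 2.25-fold (15.9 ± 1.84 CPM in Cre_TGFB and 35.7 ± 3.57 in Cre; edgeR adjusted p = 3.28e-08).

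Vegfc rose 1.32-fold with overlapping groups (34.5 ± 4.07 CPM in Cre_TGFB and 26.1 ± 4.15 in Cre; SD, n = 4; edgeR adjusted p = 0.023), and this call was lost in 6 of the leave-one-out fits: without replicate 1 or 3 and without Cre replicate 1, Cre replicate 2, Cre_TGFB replicate 3 or Cre_TGFB replicate 4 (edgeR adjusted p between 0.0592 and 0.0771). Vegfc was higher in Cre_TGFB in 4 of 4 isolates, and its call held with the replicate block (edgeR adjusted p = 9.96e-06). Pdgfd, Pdgfb and Pdgfrb were not called, with log2 fold changes of -0.30, -0.60 and -0.16. With the replicate block all 3 passed: the edgeR adjusted p was 0.0412 for Pdgfd, 0.00515 for Pdgfb and 0.0172 for Pdgfrb, so that 9 of 9 genes were called where 63.6% of all genes were.

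Neither deletion nor overexpression of Hyal2 gave a call among the 9 genes. Cre_TGFB against GFP_TGFB called 0 of 9, where 0.0064% of all genes were called, namely Hyal2 alone, and 0 of 9 had groups without overlap, against 1.57% of all genes. Vegfa averaged 763 ± 58.4 CPM in Cre_TGFB and 762 ± 104 CPM in GFP_TGFB (SD, n = 4 each), with a log2 difference of 0.00066 and a 95% interval of -0.18 to 0.19. Pdgfra averaged 166 ± 6.36 CPM in Cre_TGFB and 153 ± 10.6 CPM in GFP_TGFB, a log2 difference of 0.12 with a 95% interval of -0.03 to 0.27. For Pdgfc, at 74 ± 11.1 CPM in Cre_TGFB and 82 ± 15.4 CPM in GFP_TGFB, the interval was wider, from -0.77 to 0.48. The edgeR adjusted p was 1 for all 9, and 0 had an unadjusted p under 0.05, against 1.43% of all genes; DESeq2 and limma-voom also called 0 of the 9.

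Without TGFB, Cre against GFP also called 0 of 9, where 0.0064% of all genes were called, again Hyal2 alone, and 0 of 9 had groups without overlap, against 3.68% of all genes. The log2 differences ran between -0.15 for Pdgfd and 0.18 for Vegfb (edgeR adjusted p between 0.926 and 0.991; 0 at an unadjusted p under 0.05, against 4.55% of all genes; 0 by DESeq2 and limma-voom). Vegfa had 343, 347, 320 and 367 CPM in Cre, against 304, 305, 287 and 328 CPM in GFP. The Cre value was higher in 4 of 4 isolates, by 0.18, 0.19, 0.16 and 0.16 on the log2 scale, though the groups overlapped and the call did not pass (log2 difference 0.17, 95% interval -0.01 to 0.36, edgeR adjusted p = 0.926). Vegfb was likewise higher in 4 of 4 isolates, at 35, 30.9, 38.8 and 38.1 CPM in Cre, against 31.8, 26.5, 35.1 and 32.9 CPM in GFP (edgeR adjusted p = 0.926). Pdgfb and Pdgfrb were also higher in 4 of 4 isolates, with overlapping groups and no call. The share of all genes with the same sign in 4 of 4 isolates was not counted, here or in the other comparisons. These signs are thus a description without a background. With the replicate block 3 of the 9 genes (Pdgfrb, Vegfa and Vegfb) had an unadjusted p under 0.05, and the adjusted p of the 9 lay between 0.531 and 0.95.

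Hyal2 against GFP called 0 of 9, where 0.0064% of all genes were called, which was Hyal2 itself, and 0 of 9 had groups without overlap, against 1.25% of all genes. The log2 differences ran between -0.09 for Pdgfra and 0.22 for Pdgfb, at an edgeR adjusted p of 1, with 0 at an unadjusted p under 0.05, against 2.12% of all genes, and 0 by DESeq2 and limma-voom. Pdgfra had 854, 1010, 976 and 985 CPM in Hyal2, against 958, 1020, 1060 and 1030 CPM in GFP, a log2 difference with a 95% interval of -0.24 to 0.06, and was lower with the Hyal2 virus in 4 of 4 isolates. Vegfa, Vegfb and Pdgfrb were higher with the Hyal2 virus in 4 of 4 isolates, as they were with the Cre virus. Both comparisons use the same 4 GFP libraries, so the 2 patterns are not separate observations. For Vegfa the log2 difference in replicate 3 was only 0.000862. Over the 9 genes the intervals of the 3 virus comparisons, from the fit without the replicate block, reached from -0.79 to 0.86 at their widest. Small changes of Pdgfb and Pdgfc were thus not detectable in that fit with 4 libraries a group. With the block the SE in Cre against GFP was 0.177 for Pdgfb, against 0.298 without it. For Pdgfc it was 0.349 with the block and 0.332 without it.

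**Figure D4:**
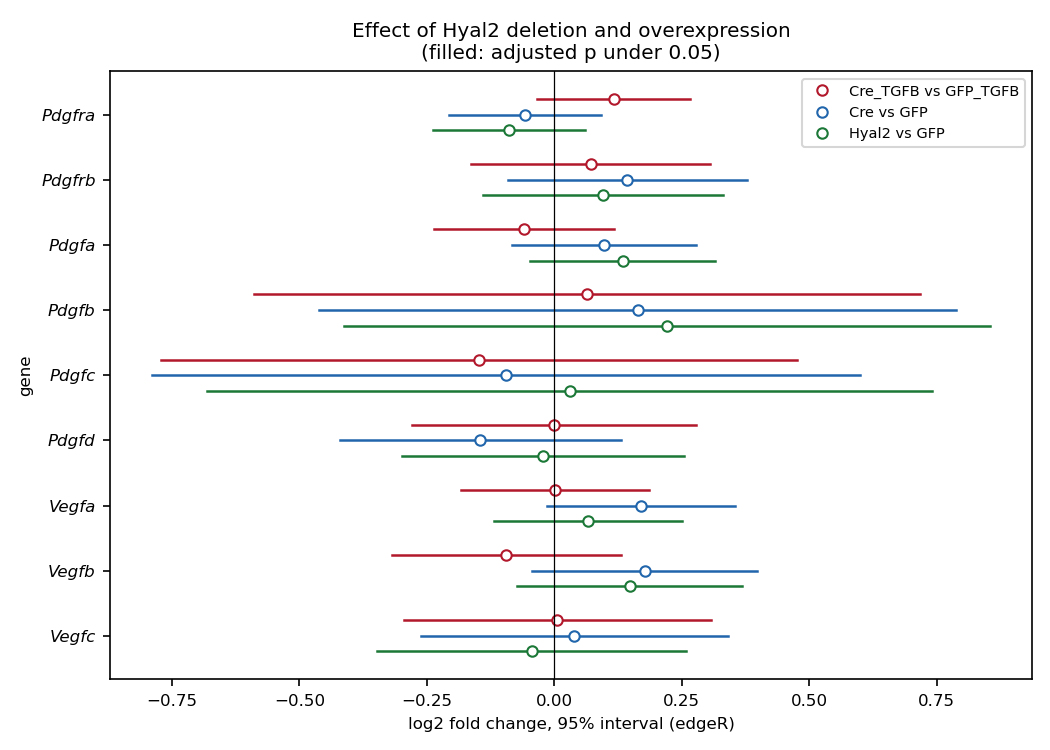
log2 fold change of the 9 genes in the 3 virus comparisons, Cre_TGFB against GFP_TGFB, Cre against GFP and Hyal2 against GFP, with 95% intervals. All 27 intervals include 0, and those of Pdgfb and Pdgfc are the widest.

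The difference between the TGFB effects with the Cre and the GFP virus, tested as an interaction, called 0 of 9 genes and 0% of all genes (edgeR adjusted p of 1 for all 9, 0 of 9 and 2.54% of all genes at an unadjusted p under 0.05, 0 of 9 by DESeq2 and limma-voom). The interaction ran between -0.27 for Vegfb (95% interval -0.59 to 0.04) and 0.17 for Pdgfra (95% interval -0.04 to 0.38). For Pdgfra it was above 0 in 4 of 4 isolates, at 0.15, 0.18, 0.17 and 0.21. For Vegfa, Vegfb and Pdgfa it was above 0 in 0 of 4 isolates. In the fit with the replicate block, Vegfb alone of the 9 had an unadjusted p under 0.05, and the adjusted p of the 9 lay between 0.774 and 0.984.

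The response of Pdgfc to TGFB differed between the sexes. In GFP_TGFB against GFP the rise was 37-fold in male cultures and 13.3-fold in female ones, and the difference, male minus female, was 1.48 on the log2 scale (SE 0.32, edgeR adjusted p = 0.0346), where 1.38% of all genes were called, 0.928% higher and 0.454% lower in males. It lay mainly in the level without TGFB: Pdgfc was lower in male than in female GFP cultures by a log2 difference of -1.04 (edgeR adjusted p = 0.0171), and in GFP_TGFB the difference was 0.43 (edgeR adjusted p = 0.295). With the Cre virus the rise was 36.2-fold in male and 13.3-fold in female cultures, and the difference of 1.45 did not pass (edgeR adjusted p = 0.0688). Each sex rested on 2 isolates, so sex and isolate cannot be told apart. Leaving out 1 library at a time kept the sign in 8 of 8 fits and lost the call in 6: without GFP replicate 2 or 3 and without GFP_TGFB replicate 1, 2, 3 or 4 (log2 difference 1.19 to 1.57, edgeR adjusted p 0.0557 to 0.243). With the replicate block the call held (edgeR adjusted p = 0.018), where 6.05% of all genes were called. The other 8 of the 9 genes were not called (edgeR adjusted p between 0.315 and 0.946).

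The lists of related genes are described for GFP_TGFB against GFP, by count and median, beside the 26.6% of all genes called higher and 28.6% called lower and the median of -0.02. Of the 28 genes of the HIF pathway and hypoxia list, which holds HIF subunits, their targets and also inhibitors of HIF, 1 rose, 22 fell and 5 did not pass, with a median log2 fold change of -0.63. Adm, the vasodilator peptide adrenomedullin, averaged 18.9 ± 1.54 CPM in GFP_TGFB and 158 ± 50.4 CPM in GFP (SD, n = 4; edgeR adjusted p = 6.2e-09). Epas1, which encodes HIF-2 alpha, averaged 27 ± 7.27 CPM in GFP_TGFB and 214 ± 68.2 CPM in GFP (edgeR adjusted p = 6.85e-08). Pdk1, which limits pyruvate entry to mitochondria, fell 3.31-fold and the mitophagy gene Bnip3 fell 2.95-fold, while Pfkfb4, a regulator of glycolysis, rose 2.81-fold. In Cre_TGFB against Cre, 1 of the 28 rose and 25 fell, with a median of -0.64.

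Of 10 tested genes that act on Vegfa transcription, RNA stability or translation, 5 rose and 2 fell (median 0.23); in Cre_TGFB against Cre, 3 rose and 2 fell (median 0.13). The immediate early factor Egr1 averaged 81.2 ± 18 CPM in GFP_TGFB and 30.3 ± 5.83 CPM in GFP (SD, n = 4; edgeR adjusted p = 5.92e-05), and Atf4, a factor of the integrated stress response, rose 1.38-fold. Elavl1, which stabilises AU-rich RNAs, rose 1.46-fold. Zfp36l1, which destabilises such RNAs, averaged 64 ± 3.84 CPM in GFP_TGFB and 182 ± 31.9 CPM in GFP and fell 2.84-fold (edgeR adjusted p = 2.36e-09), and Sp3 fell 1.67-fold.

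Of 11 genes of the proteases that release or process these ligands, and their partners, 2 rose and 6 fell (median -0.85); in Cre_TGFB against Cre, 1 rose and 6 fell (median -0.78). Plat, the tissue plasminogen activator that releases active PDGF-C, averaged 99 ± 21.7 CPM in GFP_TGFB and 260 ± 40 CPM in GFP (SD, n = 4; edgeR adjusted p = 5.88e-08), so it was lower where Pdgfc was higher. Plau, the urokinase that releases PDGF-D, fell 1.99-fold, whereas its receptor Plaur rose 4.54-fold. Adamts1, which binds VEGF-A, fell 3.45-fold, the convertase Pcsk6 fell 2.53-fold, and Furin, a convertase of PDGF-A and VEGF-C, rose 1.18-fold.

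Of 36 receptor adaptors and effectors, 12 rose and 7 fell (median 0.08); in Cre_TGFB against Cre, 17 rose and 9 fell (median 0.17). Pik3cb, a catalytic subunit of PI3-kinase, rose 5.18-fold and the kinase Fyn 1.8-fold, while Pik3r1, a regulatory subunit of PI3-kinase, fell 2.43-fold and the adaptor Gab1 fell 2.03-fold. Hras and Map2k1 of the MAP kinase route rose 1.55-fold and 1.52-fold, and the transcription factors Stat5a and Stat3 fell 1.56-fold and 1.54-fold. Of 22 negative regulators of these receptors, 11 rose and 7 fell (median 0.13); in Cre_TGFB against Cre, 10 rose and 7 fell (median 0.14). Lrig1, which promotes receptor degradation, rose 2.48-fold, the lipid phosphatase gene Inppl1 1.83-fold, the ubiquitin ligase gene Cblb 1.76-fold and the Ras GTPase activator Rasa1 1.5-fold. Socs3 fell 3.25-fold, Socs1 3.05-fold, Spry2, a feedback inhibitor of MAP kinase signalling, 2.73-fold, and the phosphatase gene Ptpn1 1.65-fold.

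**Figure D5:**
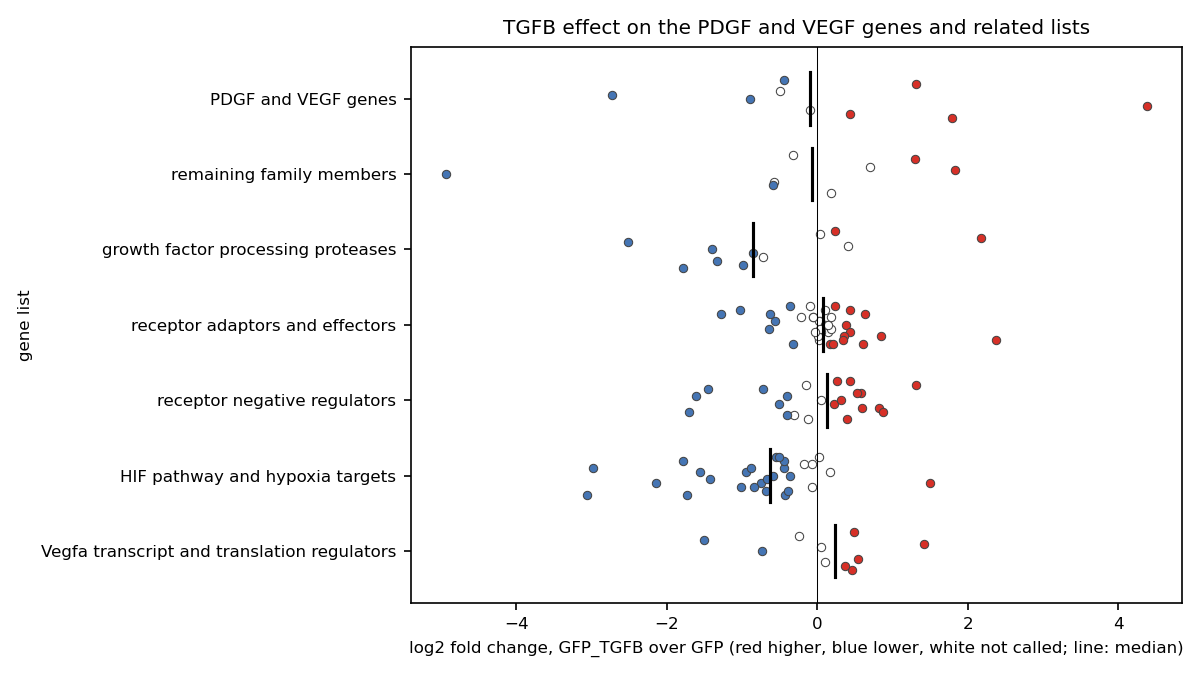
log2 fold change of every tested gene of each list in GFP_TGFB against GFP, 1 point per gene, with the median of each list. The HIF pathway and hypoxia list has a median of -0.63, with 22 of 28 genes called lower, and the protease list a median of -0.85.

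Markers of other cell types also differed with TGFB, and their part in the results was not tested. Their counts are for GFP_TGFB against GFP, where 26.6% of all genes were called higher and 28.6% lower. With the replicate block 61.9% of all genes were called. The 12 endothelial markers, which hold Kdr and Flt1, summed to 31.7 to 41.2 CPM in GFP_TGFB and 50.7 to 62.3 CPM in GFP. Of these, 0 rose, 4 fell and 8 were called with the replicate block. Kdr, Emcn, Cldn5, Erg and Robo4 averaged under 1 CPM in both groups. Others were detected: Tek lay at 4.2 to 6.02 CPM in GFP_TGFB and at 15.4 to 26.3 CPM in GFP. Cdh5 lay at 2.91 to 7.3 CPM and at 4.96 to 8.75 CPM in the same groups. Pecam1 lay at 1.15 to 2.44 CPM and at 2.88 to 4.51 CPM. The 12 leukocyte markers summed to 133 to 331 CPM in GFP_TGFB and 234 to 546 CPM in GFP. Of these, 0 were higher and 6 lower, and all 12 were called with the replicate block. Their median log2 fold change was -0.90, against -0.02 over all genes. The 10 pericyte markers, which hold Pdgfrb, summed to 591 to 665 CPM in GFP_TGFB and 729 to 1050 CPM in GFP; of 8 tested, 2 rose and 3 fell, and Kcnj8, Abcc9, Higd1b and Vtn averaged under 1 CPM in both groups. Cspg4, a pericyte marker and PDGF coreceptor, lay at 55.3 to 69.8 CPM in GFP_TGFB and at 2.27 to 3.07 CPM in GFP, while Rgs5 lay at 0.366 to 1.15 CPM and at 1.04 to 2.69 CPM in the same groups. The 8 smooth muscle markers summed to 244 to 313 CPM in GFP_TGFB and 129 to 161 CPM in GFP, with 4 of 7 tested higher, 1 lower and 1 gene without a read in each group. The 6 Schwann cell markers summed to 324 to 380 CPM in GFP_TGFB and 119 to 148 CPM in GFP, with Sox10 under 1 CPM in both. Of the 5 tested Schwann cell markers 1 rose and 2 fell (median log2 fold change -0.05), so the higher sum does not hold for the list as a whole. The 8 mesothelial markers summed to 1.45 to 3.81 CPM in GFP_TGFB and 1.57 to 4.54 CPM in GFP, with 2 of 5 tested lower and 4 called with the replicate block. Of the 12 fibroblast markers, which hold Pdgfra, 2 rose and 7 fell, and they summed to 58800 to 68900 CPM in GFP_TGFB and 61900 to 84200 CPM in GFP.

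The genes most like each of the 9 across the 20 libraries are given by Pearson's r of log2 CPM, as a description: the libraries share isolates and fall into cultures with and without TGFB, which sets much of each r. Of 9896 other genes with a mean of at least 5 CPM, Crabp2 (r 0.998), Snx30 (0.998) and Slc20a1 (0.997) were most like Pdgfc. Cspg4 (0.994), Ehd1 (0.993) and Gadd45b (0.993) were most like Pdgfa. Ltbp2 (0.994), Myh9 (0.993) and Itga5 (0.992) were most like Vegfa. Kcne4 (0.997), Spidr (0.996) and Gda (0.996) were most like Pdgfra, and Ddah2 (0.989), Rgma (0.987) and Sdk1 (0.986) most like Vegfb. Col5a3 (0.961), Htra1 (0.955) and Crispld2 (0.947) followed Vegfc. For the others the genes were Lamb1 (0.937), Mnt (0.925) and Itga11 (0.92) for Pdgfrb, Arhgap45 (0.935), Acot11 (0.934) and Lzts3 (0.928) for Pdgfb, and Pfn2 (0.929), Arl5a (0.914) and Rab30 (0.892) for Pdgfd.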

How the data were processed

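RNA-seq gene counts of 20 samples were used. The labels' protocols name Trizol for the RNA, a DNase step and the NEBNext Ultra II kit for the libraries. FastQC 0.10.1, HTSeq 0.10.0 and build GRCm39 (mm39) come from the submitters' processing notes. The aligner, annotation release and strand setting were not given in the sources used. The deposited values are raw counts per Ensembl gene, with no normalisation by the authors. Such counts cannot separate reads of overlapping genes, and do not show the deletion of exon 2 of Hyal2. All columns matched a sample (0 unmapped). Symbols, exon lengths and overlaps came from GENCODE M21 (GRCm38), and 52081 of 55414 identifiers had a symbol.

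The test was the robust quasi-likelihood F test of edgeR 4.0.16 (R 4.3.3), with TMM factors, all 20 libraries, group means and no block. The filter filterByExpr, with a count of 10 or more required in 4 libraries and a total of 15, kept 15624 of 31062 genes with any count. SE is the absolute log2 fold change over the square root of F, and 95% intervals use the t distribution of the fit. For the sex difference, the fit held a mean for each sex within each group. CPM carries TMM factors, and CPM per kb divides it by the union of exons. Libraries of 1 number deviated together from their group means (r 0.114 to 0.712 over 40 pairs, median 0.41, all above 0.1) and share library name codes, so the numbers pair the samples. Pairs of other numbers had r 0.0713 to 0.442 (median 0.263) within a sex and -0.606 to -0.0445 between the sexes, so part of the shared deviation goes with sex. Nothing states that the replicates came from separate animals, so p-values measure the spread between these samples. Replicates differed by more than sampling noise. Alternatives were RLE factors, library totals, DESeq2 1.42.0, limma-voom (limma 3.58.1), no filter, a replicate block, only the groups compared, and leaving out replicates or single libraries; the single-library and block fits of the sex difference were added after seeing the data. The code was tested on simulated data.

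The 9 genes and the lists were chosen with earlier results of these data known. Named genes of a list are, per direction, at most the 4 with the largest called change in GFP_TGFB against GFP whose higher group averaged 5 CPM or more; the remaining family members are all named. Markers named beside the sums, and the motifs and promoters shown, were chosen after their values were seen. The values of 1 marker gene are not reported here. The floor of 3 counts covers counting error only.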

Additional observations from a re-analysis of the deposited data

Results flagged for a closer look

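Pdgfra in GFP_TGFB replicate 2 lay at 169 CPM, apart from the other 3 libraries of its group at 146 to 149 CPM. It was the 1 flag among 50 groups of 4 libraries looked at, where chance flags about 1 in 20 groups (2.5 of 50). The fall of Pdgfra was called without this library as well.

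The TGFB response of Pdgfc differed between male and female cultures by 1.48 on the log2 scale by the test of the difference itself (edgeR adjusted p = 0.0346), with 2 isolates per sex. The call was lost in 6 of 8 fits that left out 1 library, as given above.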

How the results depend on the processing

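Of the 14 called effects of the 9 genes, 246 of 261 refits kept direction and call, 15 lost the call and 0 turned the direction. The losses touched Pdgfd, Vegfc and the sex difference of Pdgfc. The other 49 effects, not called, gave 12 calls and 78 changed signs in 963 refits. The replicate block added calls for Pdgfb, Pdgfd and Pdgfrb, given above, and changed no other call of the 9 genes. Pdgfb passed in Cre_TGFB against Cre by limma-voom (adjusted p = 0.0411), without Cre_TGFB replicate 1 (0.0316) and, in GFP_TGFB against GFP, without GFP_TGFB replicate 1 (0.0389). Pdgfd passed in Cre_TGFB against Cre under library totals (0.0286), in the fit of only the groups compared (0.0419), and without replicate 4, Cre_TGFB replicate 3 or Cre replicate 4 (0.0351 to 0.0412). The cause was not tested.

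Counts of the 9 genes called ran from 6 to 8 in GFP_TGFB against GFP and from 5 to 7 in Cre_TGFB against Cre over the leave-one-out fits, and from 0 to 1 for the sex difference. Over all genes, Cre against GFP called 37 by DESeq2, 0 by limma-voom, 5 without a filter, 42 with the replicate block (0.269%), 2 with only the groups compared and 0 to 2 in leave-one-out fits. Cre_TGFB against GFP_TGFB called 2 by DESeq2, 2 with only the groups compared and 0 to 3 in leave-one-out fits. The sex difference called 216 genes, 783 by DESeq2, 925 without a filter, 945 with the replicate block and 6 to 355 in leave-one-out fits. Scaling by library totals shifted the median of all genes in GFP_TGFB against GFP to -0.13 and the share of calls that were higher to 36.3%, against 48.2% with TMM; for the sex difference that share was 53.8%, against 67.1%. The 9 genes kept their directions and calls in GFP_TGFB against GFP under that scaling.

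All signs that changed belonged to effects that were not called, some with a main value as large as that of Pdgfd in Cre against GFP (-0.15). Pdgfc in Hyal2 against GFP was -0.0336 by limma-voom. Pdgfd in Cre_TGFB against GFP_TGFB was 0.00189 with RLE, 0.00188 by DESeq2, 0.00504 by limma-voom, 0.0259 without a filter, 0.00579 with the replicate block and 0.00232 with only the groups compared. In leave-one-out fits the log2 range in Cre_TGFB against GFP_TGFB was -0.196 to 0.366 for Pdgfb, -0.0988 to 0.105 for Pdgfd, -0.00397 to 0.122 for Pdgfrb, -0.0827 to 0.0624 for Vegfa and -0.0556 to 0.0639 for Vegfc. In Cre against GFP it was -0.35 to 0.203 for Pdgfc, -0.218 to 0.0238 for Pdgfd and -0.049 to 0.128 for Vegfc. In Hyal2 against GFP it was -0.32 to 0.326 for Pdgfc, -0.163 to 0.158 for Pdgfd and -0.128 to 0.0569 for Vegfc. For the interaction it was -0.359 to 0.202 for Pdgfb, -0.352 to 0.202 for Pdgfc, -0.0475 to 0.31 for Pdgfd, -0.147 to 0.0105 for Pdgfrb and -0.122 to 0.059 for Vegfc. For the sex difference it was -0.0221 to 0.28 for Pdgfa and -0.0832 to 0.0305 for Pdgfrb. Depth limits Pdgfb most, at 24 counts in its lowest library.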

Other observations

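Vegfd, which was not among the 9 genes, also differed in its response between male and female cultures. In GFP_TGFB against GFP it fell 43.7-fold in male and 19.6-fold in female cultures, a difference of -1.16 on the log2 scale (edgeR adjusted p = 0.0346). Its level was higher in male than in female GFP cultures by 0.90 on the log2 scale (edgeR adjusted p = 0.00369), the opposite of Pdgfc. With the Cre virus the difference in the response was -0.60 and did not pass (edgeR adjusted p = 0.28). Vegfc was also higher in male than in female GFP cultures, by 0.38 on the log2 scale (edgeR adjusted p = 0.01). Pdgfb was lower in male than in female GFP_TGFB cultures, by a log2 difference of -1.06 (edgeR adjusted p = 0.0499). The test of the sex difference called 1.38% of all genes, and Vegfd was not followed in the leave-one-out fits. Each sex had 2 isolates, so sex and isolate cannot be told apart, and these results were chosen after their values were seen.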
